A study of Mus musculus with 8 samples.

Results

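Protein kinase A (PKA) is the main kinase activated by cyclic AMP. The genes described here are the 9 that encode its subunits and its dedicated inhibitors in the mouse: 4 regulatory subunit genes (Prkar1a, Prkar1b, Prkar2a and Prkar2b), 2 catalytic subunit genes (Prkaca and Prkacb) and 3 inhibitor genes (Pkia, Pkib and Pkig). They were chosen by name from 57186 listed genes, and all 9 passed the filter on low counts that kept 16766 genes for testing. Their transcripts were measured by sequencing total RNA of brain from 4 mouse libraries labelled Akap11 conditional knockout (cKO) and 4 labelled control. Akap11 is the only allele the labels name. The sources used here do not give the promoter that drives recombination, the exons removed, the brain region, the age or the sex. Whether each library is a separate mouse is not stated either, and the p-values therefore reflect only library-to-library spread, which may be technical.

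In the inactive kinase a dimer of regulatory subunits holds a pair of catalytic subunits and blocks their active sites. Cyclic AMP binds the regulatory subunits and frees the catalytic ones. Regulatory subunits are of type I (products of Prkar1a and Prkar1b) or type II (Prkar2a and Prkar2b), and A-kinase anchoring proteins tether them at particular places in the cell. AKAP11 is such an anchor, and it is known as an autophagy receptor for type I regulatory subunit protein, which these RNA counts do not measure. The inhibitor genes encode small proteins that bind free catalytic subunits and, for the Pkia product at least, carry them out of the nucleus. In neurons the kinase acts on transmitter receptors, on the release machinery and on the transcription factor CREB.

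Regulatory subunits and inhibitors block the catalytic subunit with a short stretch that resembles a substrate. The coding sequence of that stretch is shown for all 7 genes because it is the feature by which their products, and not the catalytic ones, count as the restraining side of the ratios given later. Sequences are from GENCODE release M21 transcripts (GRCm38), 5′ to 3′ on the coding strand; 15 capitals mark the 5 codons of the stretch, with 5 codons of flank on each side.
Prkar1a: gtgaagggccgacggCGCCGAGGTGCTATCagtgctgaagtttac
Prkar1b: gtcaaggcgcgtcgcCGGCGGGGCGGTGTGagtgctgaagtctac
Prkar2a: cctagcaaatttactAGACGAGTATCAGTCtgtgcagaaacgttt
Prkar2b: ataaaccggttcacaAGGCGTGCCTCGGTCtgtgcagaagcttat
Pkia: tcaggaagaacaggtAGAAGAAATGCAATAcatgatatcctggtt
Pkib: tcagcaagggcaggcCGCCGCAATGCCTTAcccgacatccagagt
Pkig: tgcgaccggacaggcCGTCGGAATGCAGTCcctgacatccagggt
Each stretch opens with a pair of arginine codons. The fourth codon stands where a substrate has its phosphorylated residue. It is a serine codon in the type II genes (TCA in Prkar2a, TCG in Prkar2b), an alanine codon in Prkar1a (GCT) and in the 3 inhibitor genes, and a glycine codon in Prkar1b (GGT). The windows of Prkar1a and Prkar1b shared 33 of 45 bases and those of Prkar2a and Prkar2b 28 of 45, while Prkar1a and Prkar2a shared 17 of 45.

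Reads in genes ranged from 13841218 to 19991942 per cKO library and from 15752877 to 19818313 per control library. Akap11, the targeted gene, lay between 214 and 240 CPM in cKO libraries and between 291 and 373 CPM in control libraries, so each library matched its label. CPM is the read count per 1000000 reads in genes, with library sizes adjusted by the trimmed mean of M-values (TMM). cKO replicate 1 stood apart, with a share of reads in genes of 63.8% where the remaining libraries had 73.7% to 79.7%, and values without it are given beside the results it moves. Control replicate 1 lay apart on the second principal component of log2 CPM (31.0, where the others lay between -14.3 and 3.77). Neuronal transcripts were present in all libraries: 15 of 15 neuron markers were tested. Their summed level ran from 10591 to 11060 CPM in cKO libraries and from 10634 to 11725 CPM in control libraries. No other tissue was compared, so this is not a test of the tissue label.

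None of the 9 genes passed the test between cKO and control brain. By edgeR's quasi-likelihood test with Benjamini-Hochberg adjustment over all 16766 genes, 0 of 9 had an adjusted p under 0.05, as did 0 of 9 by DESeq2 and 0 of 9 by limma voom; 0.0239% of all genes did by edgeR. At an unadjusted p under 0.05 the count by edgeR was 1 of 9, Prkar1a, against 4.78% of all genes. The log2 fold changes of the 9 genes had a median of -0.038, with 7 negative and 2 positive; all tested genes had a median of 0.0034 and 48.8% were negative. The median of the 9 genes was -0.011 without control replicate 1, -0.027 without cKO replicate 1 and -0.0094 without both.

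**Figure D1:**
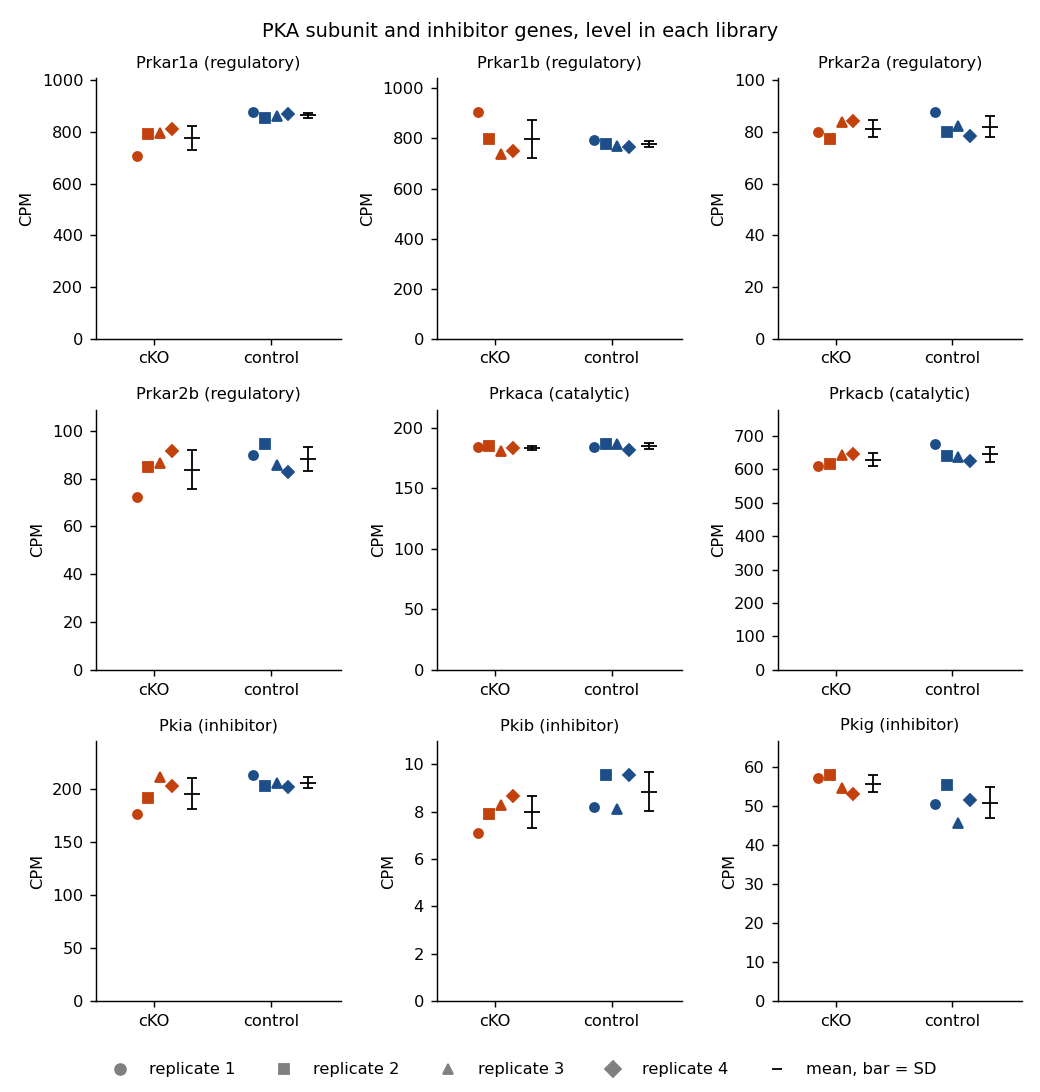
Level of each of the 9 genes in TMM-scaled CPM in the 4 cKO and the 4 control libraries; symbols give the replicate number, bars the mean and SD, and every axis starts at 0. Prkar1a is the gene whose groups do not overlap (706 to 810 CPM in cKO, 853 to 876 CPM in control), and cKO replicate 1 is its lowest library.

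Among the type I regulatory genes, Prkar1a (ENSMUSG00000020612, chromosome 11) encodes the broadly expressed subunit RIalpha. It had 706, 793, 797 and 810 CPM in cKO replicates 1 to 4, against 876, 853, 863 and 869 CPM in control replicates 1 to 4. The 4 cKO libraries all lay below the 4 control libraries, and the controls lay close together. The means were 776 ± 47.3 CPM in cKO and 865 ± 9.86 CPM in control brain (SD, n = 4 each). The groups did not overlap in the lower direction for 1 of the 9 genes, and for 1.39% of all genes tested; in the higher direction the counts were 0 of 9 and 1.57%. The log2 fold change was -0.16 (SE 0.055), a change of -10.2% with a 95% interval from -17.1% to -2.75%, and it did not pass (edgeR adjusted p 0.889, unadjusted p 0.0108). It ranked 109 of 16766 genes by p. Without cKO replicate 1 the log2 fold change was -0.12 (edgeR adjusted p 0.989) and with GC-content offsets it was -0.14 (edgeR adjusted p 0.955). Over all 17 alternatives it ran from -0.18 to -0.11, with unadjusted p from 0.00259 to 0.0254 and adjusted p from 0.679 to 0.99995 by the test of each alternative. In bulk RNA, fewer cells of a type and less RNA per cell cannot be told apart.

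Prkar1b (ENSMUSG00000025855, chromosome 5) encodes RIbeta, the type I subunit found mainly in neurons. It had 904, 798, 739 and 748 CPM in cKO replicates 1 to 4, against 795, 780, 770 and 765 CPM in control replicates 1 to 4. The cKO values lay on both sides of the controls, and cKO replicate 1, the lowest library for Prkar1a, was the highest here. The mean was 797 ± 75.9 CPM in cKO and 777 ± 13.0 CPM in control brain (SD, n = 4 each), and the log2 fold change was 0.036 (SE 0.062, edgeR adjusted p 0.938). Without cKO replicate 1 the sign turned to -0.034, and with GC-content offsets to -0.021. An overlapping transcript on the same strand, Gm15672, shares 341 exon bases with Prkar1b in GENCODE M21 and held 104 reads over the 8 libraries.

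The type II regulatory genes were less abundant. Prkar2a (ENSMUSG00000032601, chromosome 9), encoding RIIalpha, had 80.1, 77.4, 83.7 and 84.1 CPM in cKO replicates 1 to 4, against 87.6, 79.9, 82.3 and 78.5 CPM in control replicates 1 to 4. Its groups overlapped almost completely, and the log2 fold change was -0.013 (SE 0.061), or between -9.18% and 8.21% by its 95% interval. Prkar2b (ENSMUSG00000002997, chromosome 12), encoding RIIbeta, the main type II subunit of forebrain neurons, had 72.4, 84.9, 86.4 and 91.4 CPM in cKO replicates 1 to 4, against 90.0, 94.6, 85.6 and 83.0 CPM in control replicates 1 to 4. Replicate 1 of the cKO lay below all controls, and the other 3 cKO libraries lay within the control range. The log2 fold change of Prkar2b was -0.073 (SE 0.071), and -0.015 without cKO replicate 1.

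Both catalytic genes overlapped between the groups. Prkaca (ENSMUSG00000005469, chromosome 8), encoding Calpha, had 184, 185, 181 and 184 CPM in cKO replicates 1 to 4, against 184, 187, 187 and 182 CPM in control replicates 1 to 4. No library stood apart. The coefficient of variation was 0.909% in cKO and 1.31% in control libraries, under the 1.75% that counting error gives at 2542 to 3671 reads per library. The log2 fold change was -0.012 (SE 0.051), with a 95% interval from -7.91% to 6.83%. Prkaca-ps1, a pseudogene of Prkaca, held 0 reads in all 8 libraries.

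Prkacb (ENSMUSG00000005034, chromosome 3), encoding Cbeta, which has several brain splice forms, had 608, 615, 643 and 644 CPM in cKO replicates 1 to 4, against 676, 640, 637 and 624 CPM in control replicates 1 to 4. The groups overlapped, with control replicate 1 above the rest. The mean was 627 ± 18.8 CPM in cKO and 644 ± 22.1 CPM in control brain (SD, n = 4 each), and the log2 fold change was -0.038 (SE 0.053, 95% interval -9.73% to 5.10%). Gene counts sum all splice forms, so the forms of Prkacb were not separated here.

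Of the inhibitor genes, Pkia (ENSMUSG00000027499, chromosome 3) was the most abundant. It encodes PKIalpha, long known from brain and muscle. It had 177, 192, 212 and 203 CPM in cKO replicates 1 to 4, against 214, 203, 206 and 202 CPM in control replicates 1 to 4. A pair of cKO libraries lay below all controls and the other pair lay among them. The log2 fold change was -0.073 (SE 0.060), and -0.032 without cKO replicate 1.

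Pkig (ENSMUSG00000035268, chromosome 2), encoding PKIgamma, had the largest positive difference among the 9 genes. It had 57.2, 58.0, 54.7 and 53.2 CPM in cKO replicates 1 to 4, against 50.5, 55.5, 45.8 and 51.6 CPM in control replicates 1 to 4. Control replicate 2 lay among the cKO libraries and the other 3 controls lay below all of them. The log2 fold change was 0.13 (SE 0.069, 95% interval -0.656% to 21.3%, edgeR adjusted p 0.889), and 0.12 without cKO replicate 1. Unadjusted edgeR p was 0.0655 with all libraries and 0.0327 without control replicate 2, where the log2 fold change was 0.18. Without control replicate 3 the log2 fold change was 0.082 (unadjusted edgeR p 0.278), and with GC-content offsets it was 0.095 (unadjusted edgeR p 0.146).

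Pkib (ENSMUSG00000019876, chromosome 10), encoding PKIbeta, was near the lower end of the range, with 98 to 190 reads per library. It had 7.09, 7.92, 8.29 and 8.64 CPM in cKO replicates 1 to 4, against 8.21, 9.55, 8.09 and 9.54 CPM in control replicates 1 to 4. The groups overlapped, and counting error of 8.25% was close to the coefficient of variation in each group (8.34% in cKO, 9.12% in control). The log2 fold change of -0.14 (SE 0.12) had the widest interval of the 9 genes, from -23.8% to 7.60%. For the other 8 genes the 95% intervals reached at most -17.1% below and 21.3% above the control level.

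**Figure D2:**
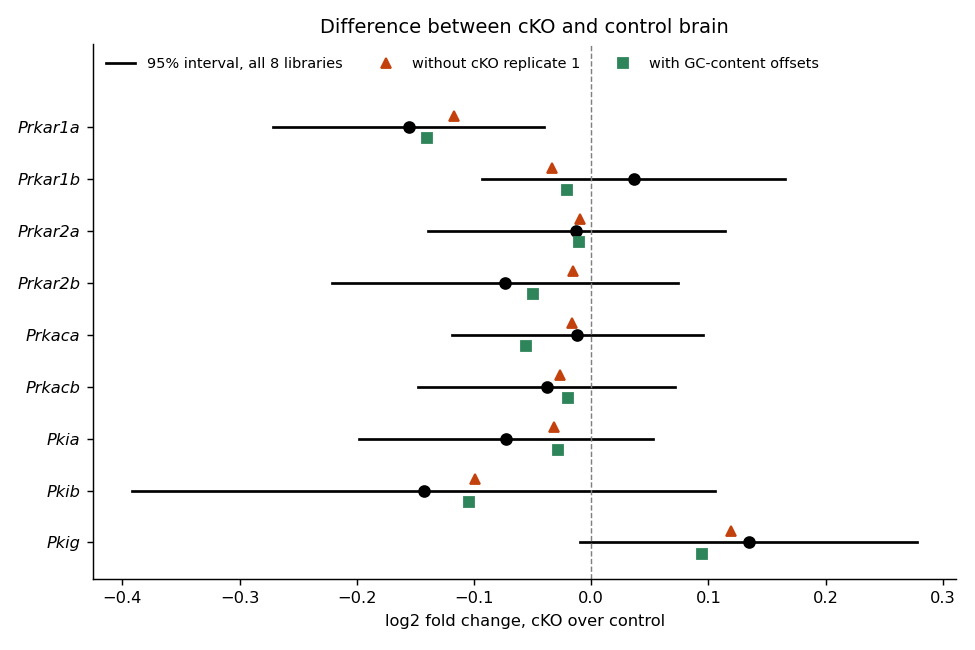
Log2 fold change of each gene, cKO over control, from edgeR: black points and lines give the estimate and its 95% interval with all 8 libraries, triangles the estimate without cKO replicate 1 and squares the estimate with GC-content offsets. Prkar1a is the gene whose interval excludes 0 (-0.27 to -0.04), and Prkar1b changes sign under both alternatives.

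In cKO replicate 1 the genes of lower GC content lay furthest below the control mean. Relative to the control mean, its log2 levels were -0.29 for Prkar1a, -0.29 for Prkar2b, -0.085 for Prkacb, -0.22 for Pkia and -0.32 for Pkib, whose longest transcripts have between 39.1% and 45.7% GC. They were 0.22 for Prkar1b, 0.17 for Pkig and -0.0086 for Prkaca, at 54.5% to 55.9% GC, and -0.035 for Prkar2a at 48.3% GC. With offsets that remove the GC trend of each library, Prkar1a had 743 to 809 CPM in cKO and 848 to 877 CPM in control libraries, without overlap. The part of base composition in the levels of cKO replicate 1 was not tested.

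To compare levels between genes, CPM was divided by gene length. On the scale of CPM per kilobase of exon union, the level of Prkar1b was 209 ± 19.9 in cKO and 204 ± 3.42 in control brain (SD, n = 4 each), and that of Prkar1a was 180 ± 11.0 and 200.2 ± 2.28. Their order was not fixed: Prkar1b was above Prkar1a in 7 of 8 libraries, and their ranges overlapped. Next came Prkaca, with 73.8 ± 0.67 in cKO and 74.4 ± 0.972 in control brain, and Prkacb with 71.5 ± 2.15 and 73.4 ± 2.52, again with overlapping ranges. Pkia followed at 52.7 ± 4.04 in cKO and 55.4 ± 1.41 in control brain, and Prkar2b at 22.9 ± 2.20 and 24.2 ± 1.402, each below the gene before it in every library. Pkig stood at 14.0 ± 0.555 in cKO and 12.7 ± 0.9997 in control brain and Prkar2a at 12.8 ± 0.501 and 12.9 ± 0.631, and their ranges overlapped. Pkib was last, at 0.677 ± 0.0564 in cKO and 0.750 ± 0.0684 in control brain.

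The order depends on the length used for Prkacb, whose exon union of 8772 bases is far longer than its longest transcript of 4347 bases. Per kilobase of longest transcript, Prkacb stood at 144 ± 4.33 in cKO and 148 ± 5.08 in control brain, above Prkaca (80.6 ± 0.733 and 81.3 ± 1.06) in every library. The other places in the order were the same on both scales, with Prkar1b above Prkar1a in every library on the longest transcript scale and Pkig above Prkar2a in 7 of 8.

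**Figure D3:**
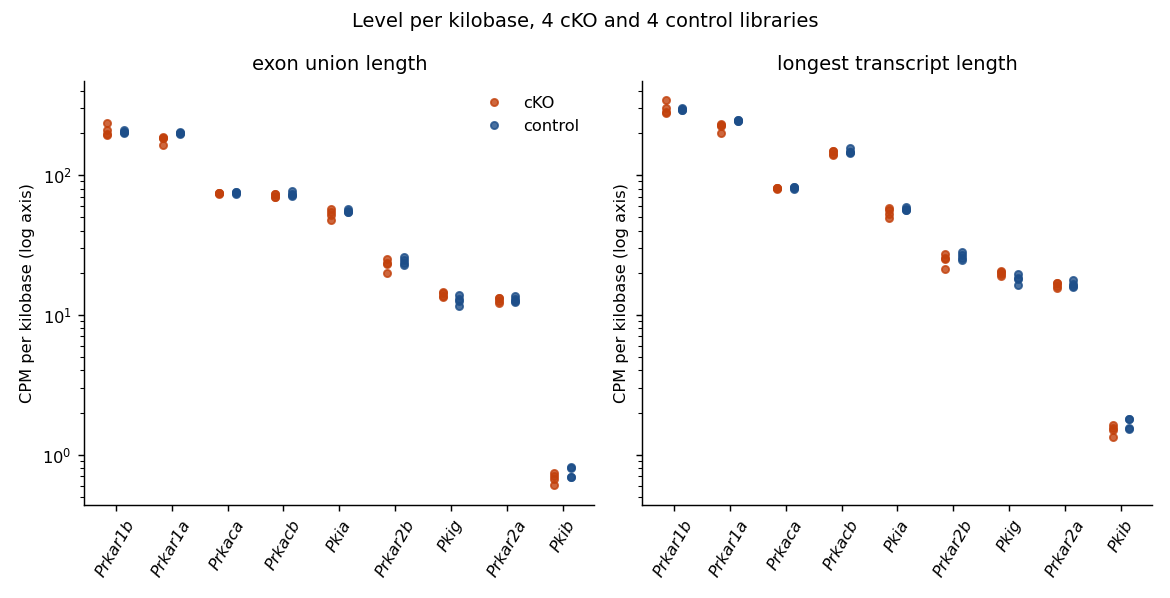
Level of each gene in CPM per kilobase on a log axis, in 4 cKO and 4 control libraries, divided by exon union length (left) or longest transcript length (right). Type I regulatory genes lead on both scales, and Prkacb moves above Prkaca when the longest transcript is used.

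The ratio of regulatory to catalytic transcripts was the summed level per kilobase of the 4 regulatory genes over that of the 2 catalytic genes. It was 3.03, 2.96, 2.84 and 2.87 in cKO replicates 1 to 4, against 2.97, 2.97, 2.96 and 3.03 in control replicates 1 to 4. cKO replicates 2, 3 and 4 lay below all controls, replicate 2 by a small margin (2.962 against a lowest control of 2.965), and cKO replicate 1 lay just under the highest control. The mean ratio was 2.92 ± 0.086 in cKO and 2.99 ± 0.0295 in control brain (SD, n = 4 each). The mean log2 ratio differed by -0.031, against a pooled SD between libraries of 0.032, so with all libraries the difference was about as large as the spread. Without cKO replicate 1 it was -0.048 against a pooled SD of 0.023, the mean ratio was 2.89 ± 0.0641 in cKO (SD, n = 3) and 2.99 ± 0.0295 in control brain (SD, n = 4), and the groups did not overlap. Without cKO replicate 3 it was -0.017 against a pooled SD of 0.027. With GC-content offsets it was -0.037 against 0.027, with overlap. Whether it exceeded the spread thus differed between these settings. No p is given for scores over these genes, because they were picked with results of these data known. The ratio itself depends on the length used. With reads not divided by length it was 2.15 ± 0.0756 in cKO and 2.19 ± 0.0325 in control brain, and the log2 difference was -0.028. With the longest transcript it was 2.51 ± 0.103 in cKO and 2.54 ± 0.0299 in control brain, and the log2 difference was -0.020. These are ratios of RNA, not of subunit proteins.

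Regulatory genes summed to 433, 428, 415 and 422 CPM per kilobase in cKO replicates 1 to 4. Control replicates 1 to 4 had 450, 440, 438 and 437, so that the groups did not overlap. This sum contains the Prkar1a difference given above and is not a separate result. Prkar1a had a mean of 179.7 in cKO and 200.2 in control brain, while Prkar1b was higher in cKO (209.2 against 204.0). Prkar2b (22.9 against 24.2) and Prkar2a (12.8 against 12.9) add little to the sum. How often sums of other genes separate was not tested. Catalytic genes summed to 143, 145, 146 and 147 in cKO replicates 1 to 4, against 151, 148, 148 and 144 in control replicates 1 to 4, with overlap. The ratio of inhibitor to catalytic transcripts was 0.463 ± 0.0210 in cKO and 0.466 ± 0.00601 in control brain (SD, n = 4 each), and its groups overlapped too.

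Within the regulatory genes, type I transcripts outnumbered type II transcripts 11.0 ± 1.05 to 1 in cKO and 10.9 ± 0.440 to 1 in control brain. The mean log2 of that ratio differed by -0.061 without cKO replicate 1, within a pooled SD of 0.066. The balance inside type I was the ratio whose groups did not overlap with all 8 libraries. The ratio of Prkar1a to Prkar1b was 0.689, 0.876, 0.951 and 0.954 in cKO replicates 1 to 4, against 0.972, 0.964, 0.988 and 1.002 in control replicates 1 to 4. cKO replicate 1 was the lowest, and the other 3 cKO libraries lay nearer to the controls. The mean log2 ratio differed by -0.19 with all libraries and by -0.083 without cKO replicate 1, where the mean ratio was 0.927 ± 0.0442 in cKO (SD, n = 3) and 0.981 ± 0.0167 in control brain (SD, n = 4), still without overlap. With GC-content offsets the groups overlapped, from 0.779 to 0.925 in cKO and from 0.920 to 0.998 in control libraries. As shares of regulatory transcripts, Prkar1a made up 42.4% ± 3.17 in cKO and 45.4% ± 0.541 in control brain, and Prkar1b 49.2% ± 3.86 and 46.2% ± 0.235. Neither share overlapped between the groups, Prkar1b by a small margin (lowest cKO 46.53%, highest control 46.47%). For Prkar1a the highest cKO share was 44.4% and the lowest control share 44.8%. The shares and the ratio come from the same genes and are not separate results. How often ratios of other genes separate was not tested. Without cKO replicate 1 the cKO shares were 43.9% ± 0.910 for Prkar1a and 47.4% ± 1.32 for Prkar1b (SD, n = 3). With GC-content offsets the Prkar1b share did overlap. Prkar2b held 5.41% ± 0.590 in cKO and 5.48% ± 0.294 in control brain, and Prkar2a 3.01% ± 0.163 and 2.92% ± 0.109.

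**Figure D4:**
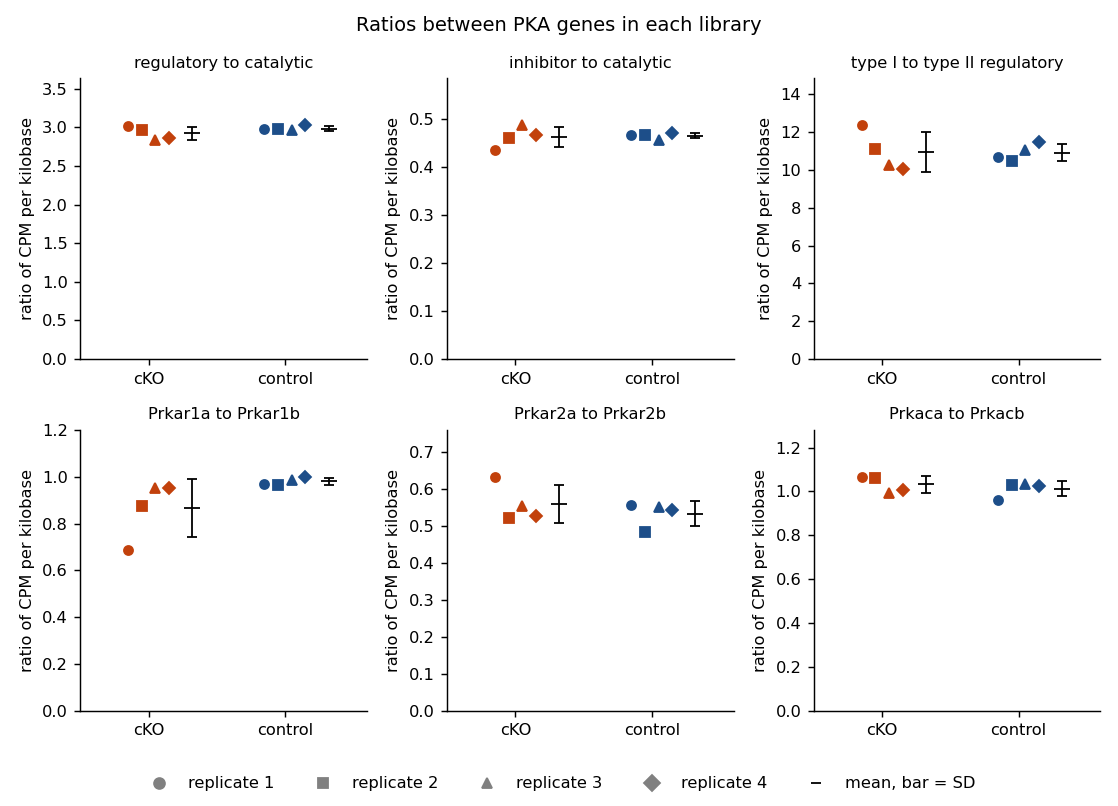
Ratios of CPM per kilobase (exon union) between PKA genes in the 4 cKO and the 4 control libraries; symbols give the replicate number, bars the mean and SD, and every axis starts at 0. The regulatory to catalytic ratio lies between 2.84 and 3.03 in cKO and between 2.96 and 3.03 in control libraries, and the Prkar1a to Prkar1b ratio is the panel whose groups do not overlap.

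Among inhibitor transcripts per kilobase, Pkia made up 78.2% ± 1.79 in cKO and 80.4% ± 1.43 in control brain, Pkig 20.8% ± 1.82 and 18.5% ± 1.34, and Pkib 1.005% ± 0.0444 and 1.09% ± 0.105. All 3 shares overlapped between the groups. Prkaca made up 50.8% ± 0.914 of catalytic transcripts in cKO and 50.3% ± 0.857 in control brain on the exon union scale, and 35.9% ± 0.841 and 35.4% ± 0.780 per kilobase of longest transcript.

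The genes whose pattern over the 8 libraries was most like that of each member were sought among 10034 other named protein-coding genes with a mean of at least 10 CPM. Likeness was the root mean square (RMS) difference between log2 CPM values centred on each gene's mean. For Prkar1a they were Fmnl2, a formin of the actin cytoskeleton, and Hspa9, the mitochondrial HSP70 chaperone, each with an RMS difference of 0.026, where the median gene had 0.14. For Prkar1b they were Ap2m1, the mu subunit of the clathrin adaptor AP-2 (0.016), and Tubb5, a beta-tubulin (0.017). For Prkaca they were Gphn, encoding the inhibitory synapse scaffold gephyrin (0.012), and Akap13, an anchoring protein gene (0.018). Prkaca's own RMS deviation from its mean was 0.015, under the 0.025 of counting error. Akap13 was thus no nearer to Prkaca than a gene with no variation would be. For Prkar2b the nearest was Ythdf3, a reader of methylated adenosine in mRNA (0.015). For Prkacb it was Strap, a WD-repeat protein (0.019), and for Pkia Gng2, a G protein gamma subunit (0.021). For Prkar2a it was Mtmr6, a phosphoinositide phosphatase (0.014), for Pkib Nek4, a kinase (0.024), and for Pkig Cd34, a surface glycoprotein of endothelial cells and progenitors (0.037). The 8 libraries share depth and base composition trends, so likeness over them is a description. Each pair is also the best match in a search of 10034 genes. For Prkar2a the difference of 0.014 lay under its counting error of 0.038 on the log2 scale. Counting error was likewise larger than the difference for Prkar2b (2.58%) and Pkib (8.25%). Whether any pair is nearer than noise would give in such a search was not tested.

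Other genes of the cAMP and PKA pathway gave no call in any list. Of 7 other regulators of the kinase 0 passed; Pja2, encoding the ubiquitin ligase praja2 that degrades regulatory subunits, had 724 ± 47.5 CPM in cKO and 779 ± 28.4 CPM in control brain (SD, n = 4 each; log2 fold change -0.10). Pdpk1, the kinase that phosphorylates the activation loop of the catalytic subunit, had a log2 fold change of -0.063. Of 16 adenylyl cyclase and G protein genes 0 passed, with a median of 0.030 (-0.0094 without cKO replicate 1), Adcy8 at 0.14 and Gnaz at -0.095. Of 16 cyclic AMP phosphodiesterase genes 0 passed, with 14 negative and a median of -0.087. The members with the lowest p were Pde10a, the phosphodiesterase of striatal neurons, at -0.12 and Pde11a at -0.26. Without control replicate 1 and cKO replicate 1 their median was -0.049.

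Of 9 tested genes for other cyclic AMP effectors 0 passed by edgeR, with Hcn3, a channel gated by cyclic nucleotides, at 0.22 and Rapgef3, the exchange factor EPAC1, at 0.15. Of 33 anchoring protein genes other than Akap11, 29 were tested and 0 passed, with 21 negative and a median of -0.050. At an unadjusted edgeR p under 0.05 there were 5 lower and 1 higher, where 1.91% and 2.87% of all genes reached it. The lower and higher counts were 1 and 0 without cKO replicate 1, and 0 and 0 without control replicate 1. They were 1 and 1 without cKO replicate 3, and 3 and 2 without control replicate 2. Without the remaining libraries they stayed near the full count: 4 and 1 without cKO replicate 2, and 5 and 1 without cKO replicate 4. Without control replicate 3 they were 5 and 1, and without control replicate 4 they were 5 and 2. Shares over all genes are given only for the fit with all libraries. The lowest p were those of Akap8l, with 168 ± 8.95 CPM in cKO and 145 ± 20.8 CPM in control brain, and Map2, the dendritic microtubule protein that anchors type II PKA, with 957 ± 68.2 CPM and 1089 ± 128 CPM (SD, n = 4 each).

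For genes of neuronal PKA substrates 0 of 26 passed, and for CREB target genes 0 of 21. These are levels of RNA, and phosphorylation of the substrates was not measured. In each list 0 reached an unadjusted edgeR p under 0.05 with all libraries. That count was not stable for the CREB targets. In the higher direction, 6 of 21 had an unadjusted p under 0.05 without control replicate 2 and 4 without cKO replicate 3. With the replicate number as a block 5 did, and by limma voom 3 did. In the lower direction 2 did with GC-content offsets. None of these passed after adjustment. With all libraries, 2.87% of all genes reached it by edgeR in the higher and 1.91% in the lower direction. The shares of all genes in the other fits are not given here, so whether these counts are particular to CREB targets was not tested. Vasp, an actin regulator, had 13.5 ± 1.66 CPM in cKO and 11.7 ± 0.0715 CPM in control brain (SD, n = 4 each). Every cKO library lay above the controls, but the gene did not pass (log2 fold change 0.21, edgeR adjusted p 0.889). The groups did not overlap in the higher direction for 1 of 26 substrate genes and for 1.57% of all genes tested. Rims1, a presynaptic scaffold, had a log2 fold change of -0.12. Among CREB targets, Dusp1, a MAP kinase phosphatase, stood at 0.44 (SE 0.20) and Penk, the enkephalin precursor, at -0.12 (SE 0.061). The CREB target list had a median of 0.0027 with 11 positive and 10 negative genes, and a median of 0.086 without control replicate 2.

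**Figure D5:**
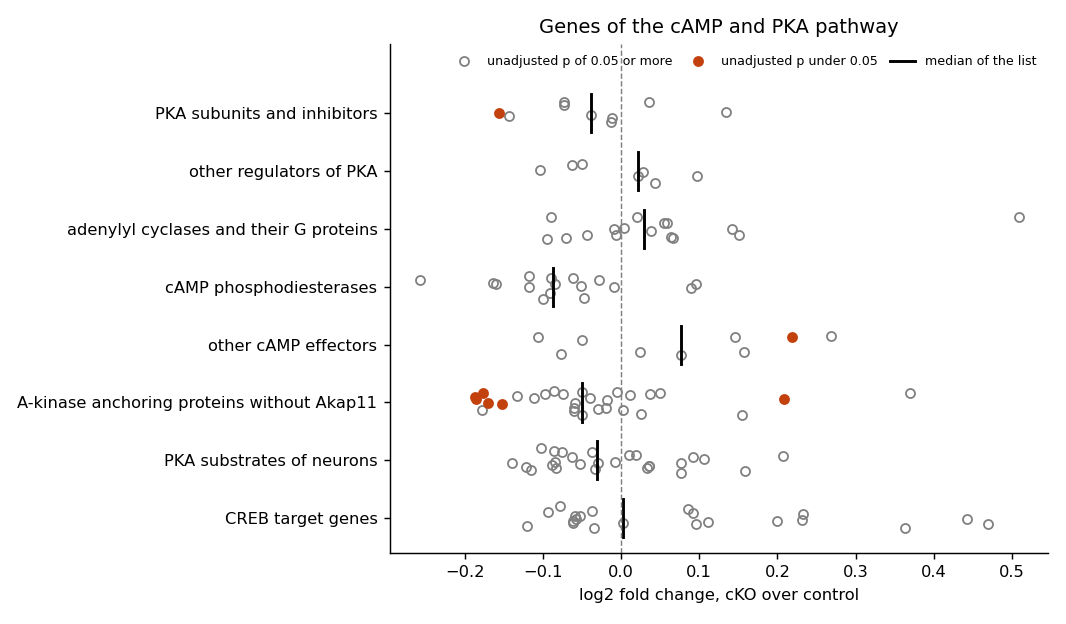
Log2 fold change, cKO over control, of every tested gene in 8 lists of the cAMP and PKA pathway; filled points had an unadjusted edgeR p under 0.05 and black ticks give list medians. Prkar1a is the filled point among the PKA subunits and inhibitors, and no gene of any list passed after adjustment over all genes.

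Markers of brain cell types were read beside these levels. Of 15 neuron markers 11 were negative (median log2 fold change -0.027). Of 9 striatal neuron markers 8 were negative (median -0.049), and their sums ran from 1016 to 1177 CPM in cKO and from 1073 to 1194 CPM in control libraries. Astrocyte markers summed to 4157 to 4703 CPM in cKO and to 4539 to 5241 CPM in control libraries, with 1 of 10 called, the water channel gene Aqp4, which rose in cKO (log2 fold change 0.46, edgeR adjusted p 0.0104). That call was lost without cKO replicate 2, 3 or 4 and without control replicate 2 or 4, and 5 of the 10 astrocyte markers were negative. Oligodendrocyte markers summed to 4934 to 5690 CPM in cKO and to 5163 to 6201 CPM in control libraries, with 0 of 9 called. Endothelial markers were negative for 6 of 7 genes (median -0.10), and choroid plexus and ependymal markers for 5 of 6 (median -0.095, and -0.0043 without control replicate 1). Blood markers were negative for both of the genes tested (median -0.65), but without control replicate 4 their median was 0.092. Microglial markers were positive for 6 of 8 (median 0.071) and meningeal markers for 4 of 6 (median 0.038). These lists had 0 called, and every marker had reads. The part of cell composition in the Prkar1a difference was not tested.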

How the data were processed

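Brain RNA of 4 cKO and 4 control libraries was analysed. The deposited values are raw read counts per Ensembl gene, 1 file per library; per the submitters' processing notes, HISAT2 and GRCm39 were used. The sources used here give no version, counting program, strand setting or annotation, so reads of a gene and of an antisense partner may be mixed. Reads in genes were 63.8% to 79.7% of listed reads; entries that name no gene stayed out. Symbols came from GENCODE M21 (51880 of 57186 genes matched), as did lengths and GC content; as it uses GRCm38, no coordinates are given.

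Counts were filtered with filterByExpr, scaled by TMM and fitted with edgeR 4.0.16 (glmQLFit, robust; group only) in R 4.3.3. Benjamini-Hochberg adjustment ran over all genes tested, with a threshold of 0.05. The code was tested on simulated data. Alternatives were DESeq2 1.42.0, limma voom (limma 3.58.1), DESeq2 size factors, library totals, other filters, the replicate number as a block, GC-content offsets (loess, span 0.5) and libraries left out; for ratios other than regulatory to catalytic, leaving libraries out was added after seeing the data. The genes and lists were chosen with earlier results of these data known. Beside the 9 genes and Akap11, those named are up to 2 per pathway list with the lowest p and those of nearest pattern; Aqp4 is named as a marker called. Replicates of a group differed by more than counting noise.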

Additional observations from a re-analysis of the deposited data

Results flagged for a closer look

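In 3 of 30 groups of 4 libraries (9 genes and 6 ratios, in cKO and in control) 1 library lay far from the other 3; chance flags about 1 in 20 groups. Prkar1a had 706 CPM in cKO replicate 1, where the other 3 cKO libraries lay between 793 and 810 CPM. The regulatory to catalytic ratio per kilobase was 3.03 in control replicate 4, where the other 3 control libraries lay between 2.96 and 2.97. The Prkaca to Prkacb ratio per kilobase was 0.962 in control replicate 1, where the other 3 control libraries lay between 1.027 and 1.034.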

How the results depend on the processing

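For the 9 genes the count of calls was 0 under all 17 alternatives. The log2 fold changes of Prkar1a, Prkar2b, Prkaca, Pkia, Pkib and Pkig kept their sign in each. For some of them the value came close to 0. Without control replicate 1 and cKO replicate 1, Prkar2b stood at -0.00057 and Pkia at -0.0094. With library totals Prkaca stood at -0.0023. Prkar1b turned from 0.036 to -0.021 with GC-content offsets, to -0.017 without control replicate 1 and cKO replicate 1, and ran from -0.034 to 0.067 over the fits that leave out 1 library. Prkar2a turned from -0.013 to 0.028 without both libraries and ran from -0.038 to 0.023 over those fits. Prkacb turned from -0.038 to 0.0022 without both libraries and ran from -0.057 to -0.011 over those fits. These 3 genes had no call in any fit, and the cause was not tested. The regulatory to catalytic log2 difference was negative under all 13 alternatives, from -0.049 without both libraries to -0.017 without cKO replicate 3. For the replicate block this was fixed in advance, because the mean of differences by replicate number equals the difference of means. Each alternative moved the ratio difference from its value of -0.031 by less than the pooled SD of 0.032. That SD is about as large as the difference, so it is a wide limit. Over all genes 4 were called. There were 2 with limma voom, 2 with the replicate block and 2 without both libraries. With no low-count filter, where 32202 genes were tested, there were 7, and with 1 library left out from 0 to 3. The causes of these differences were not tested. Akap11 missed the threshold without cKO replicate 2 (edgeR adjusted p 0.104) and without control replicate 2 (0.0616). The numbers did not pair the libraries: deviations of same-numbered libraries correlated from -0.047 to 0.073. The replicate block changed no call among the 9 genes. Depth limits Pkib most.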

Other observations

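Prkaca had the second lowest spread over the 8 libraries of 10368 genes with a mean of at least 10 CPM. Its RMS deviation was 0.015 on the log2 scale, where the median gene had 0.10. Counting error alone gives about 0.025 at its depth. It ranked 3 of 10368 with library totals as the scale and 734 of 10368 with GC-content offsets, where its deviation was 0.048. Prkacb ranked 408 and Prkar2a 993 of these genes with the TMM scale, while Akap11 ranked 10270.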
